A study of Mus musculus with 2 samples.

Results

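The 10 circadian clock genes Per1, Per2, Per3, Dbp, Tef, Nr1d1, Nr1d2, Arntl, Clock and Ciart were measured by single-cell RNA sequencing in brain cell classes of 2 libraries. They were found by symbol among the 25906 genes listed, each symbol matched 1 identifier, and all 10 had UMIs (unique molecular identifiers, 1 per captured transcript) in the kept cells of both libraries. Cells sorted as endothelial cells and astrocytes came from whole brains of adult mice that carry a LacZ allele of Il34, the gene of interleukin-34. There was 1 library from mice of the genotype IL34LacZ/+, called WT in the design text, and 1 from IL34LacZ/LacZ mice, called KO there, so every animal carried at least 1 LacZ allele. The age in weeks, the number of mice, the sort markers and the hour at which brains were taken are not given in the sources used here. Levels of clock transcripts depend on that hour, and no comparison below holds it as a variable.

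The molecular clock is a feedback loop of transcription and translation that runs in most cell types of the body. The proteins of Arntl (also called Bmal1) and Clock pair up on E-box sequences and switch on the Per and Cry genes, whose products then inhibit that pair. Nr1d1 and Nr1d2, whose products are named REV-ERB, repress Arntl through ROR elements, while Dbp and Tef encode activators that bind D-box sequences, and in the brain astrocytes and vessel cells carry such clocks alongside neurons.

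The promoters of 4 transcripts are shown because their letters hold the elements through which this loop is described. RefSeq entries (GRCm38.p6, 250 bases before to 50 after each start) were found for 9 of the 10 genes, 14 entries in all, and there was none for Per2. Both strands were searched for CACGTG (E-box), TTATGTAA or TTACGTAA (D-box) and TAGGTCA or TGGGTCA (ROR element), and matches stand in capitals. The E-box letters were in 7.17% of the 32544 promoters of the same length, the D-box letters in 1.05% and the ROR letters in 6.48%. The Per3 entry, chr4:151044616-151044915 on the minus strand, held 2 D-boxes. The Ciart entry, chr3:95882179-95882478 on the minus strand, held 3 E-boxes. Both Tef entries, chr15:81802423-81802722 and chr15:81811164-81811463 on the plus strand, held 1 E-box.
Per3: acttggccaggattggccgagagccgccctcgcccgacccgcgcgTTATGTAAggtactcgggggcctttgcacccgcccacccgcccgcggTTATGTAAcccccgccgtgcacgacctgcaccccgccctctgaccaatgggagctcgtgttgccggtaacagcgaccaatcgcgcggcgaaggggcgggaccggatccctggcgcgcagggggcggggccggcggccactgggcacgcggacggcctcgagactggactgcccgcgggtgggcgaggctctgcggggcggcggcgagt
Ciart: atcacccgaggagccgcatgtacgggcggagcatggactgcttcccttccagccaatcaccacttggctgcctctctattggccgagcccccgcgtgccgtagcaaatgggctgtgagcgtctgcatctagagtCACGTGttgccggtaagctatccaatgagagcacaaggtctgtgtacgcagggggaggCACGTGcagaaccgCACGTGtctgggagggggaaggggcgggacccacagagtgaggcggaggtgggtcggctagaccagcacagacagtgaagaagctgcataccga
Tef, first start: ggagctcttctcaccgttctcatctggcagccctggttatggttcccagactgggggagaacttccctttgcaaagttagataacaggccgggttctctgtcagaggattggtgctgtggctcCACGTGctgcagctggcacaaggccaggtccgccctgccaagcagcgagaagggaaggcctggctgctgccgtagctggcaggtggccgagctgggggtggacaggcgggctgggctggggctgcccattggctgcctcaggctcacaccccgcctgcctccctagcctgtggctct
Tef, second start: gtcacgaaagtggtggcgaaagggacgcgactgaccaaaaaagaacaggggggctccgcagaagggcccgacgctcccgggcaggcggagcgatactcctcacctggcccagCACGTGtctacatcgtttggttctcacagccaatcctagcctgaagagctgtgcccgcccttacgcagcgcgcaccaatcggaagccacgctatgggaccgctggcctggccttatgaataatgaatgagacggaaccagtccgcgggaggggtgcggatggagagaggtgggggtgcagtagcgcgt
Of the other members, 1 of 2 Per1 entries held 1 E-box and 1 of 2 Arntl entries held 1 ROR element. The entries of Dbp, Nr1d1, Nr1d2 and Clock held no match to any of these elements. A match describes these letters only and is neither a site of binding nor a cause of any level given below.

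The libraries held 3901 and 5400 barcodes, of which 1646 and 1167 were kept as cells, and the median cell held 8026 and 10366 UMIs. They shared 8 barcode sequences, and 2 among the kept cells. Il34 had 165 UMIs (10.3 per 1000000 UMIs, CPM) in the library labelled IL34LacZ/+ and 262 UMIs (18.8 CPM) in the library labelled IL34LacZ/LacZ, which goes against the labels. Nearly all of these lay outside the 4 larger classes compared below, which held 8 and 3 Il34 UMIs, too few to show a direction. Whether these 3-prime tags lie inside the altered part of the gene is not given, so every direction between libraries rests on the labels alone. The labels name endothelial cells and astrocytes alone, yet choroid plexus epithelium-like and oligodendrocyte-like cells made up 18.8% and 14.5% of the cells of the first library and 18.8% and 19.5% of the other. Cells were put into classes by how many markers of a list they expressed, giving 506 and 296 endothelial-like, 247 and 112 astrocyte-like, 310 and 219 choroid plexus epithelium-like and 239 and 227 oligodendrocyte-like cells. Pericyte-like (31 and 43) and fibroblast-like (16 and 22) cells were few, and microglia-like (43 and 11) and erythrocyte-like (12 and 32) cells were used as side values. The gate cuts a range: in the larger classes 3 to 25 cells per library lay within 1 marker of the cut on the inside and 2 to 21 on the outside. Leaving out the erythrocyte list, the median endothelial-like cell detected 9 of 10 endothelial markers and 1 marker of the next list. Astrocyte-like cells likewise detected 9 of 10 astrocyte markers and 1 of the next list. Of the 7 erythrocyte markers, the median endothelial-like cell detected 3 and 4 in the 2 libraries. The median astrocyte-like cell detected 4 in both.

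All levels below are sums of UMIs over the cells of a class, divided by the class total and scaled to 1000000 UMIs (CPM). Values are in the order IL34LacZ/+ then IL34LacZ/LacZ, and intervals are exact and cover counting error only. With 1 library per genotype there are no replicates and no test, and a level is compared between classes for 1 gene at a time, not between genes. A gene was called between classes when it was at least 2-fold higher in the same class in both libraries, with each 95% interval leaving out 1 and at least 30 UMIs over both classes in each library. The erythrocyte-like cells, which should lack most brain transcripts, serve as a rough guide to free RNA. Haemoglobin took 76.0% and 69.5% of their UMIs, which lowers the CPM of every other gene there, and their cluster was led by haemoglobin genes, Alas2 and Slc25a37, so some may still hold transcripts of red cell precursors. They summed to 17.1 and 32.5 CPM of Clock, 27.3 and 19.1 of Arntl, 10.2 and 24.8 of Nr1d2, and 0 UMIs of Per3 in both libraries.

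**Figure D1:**
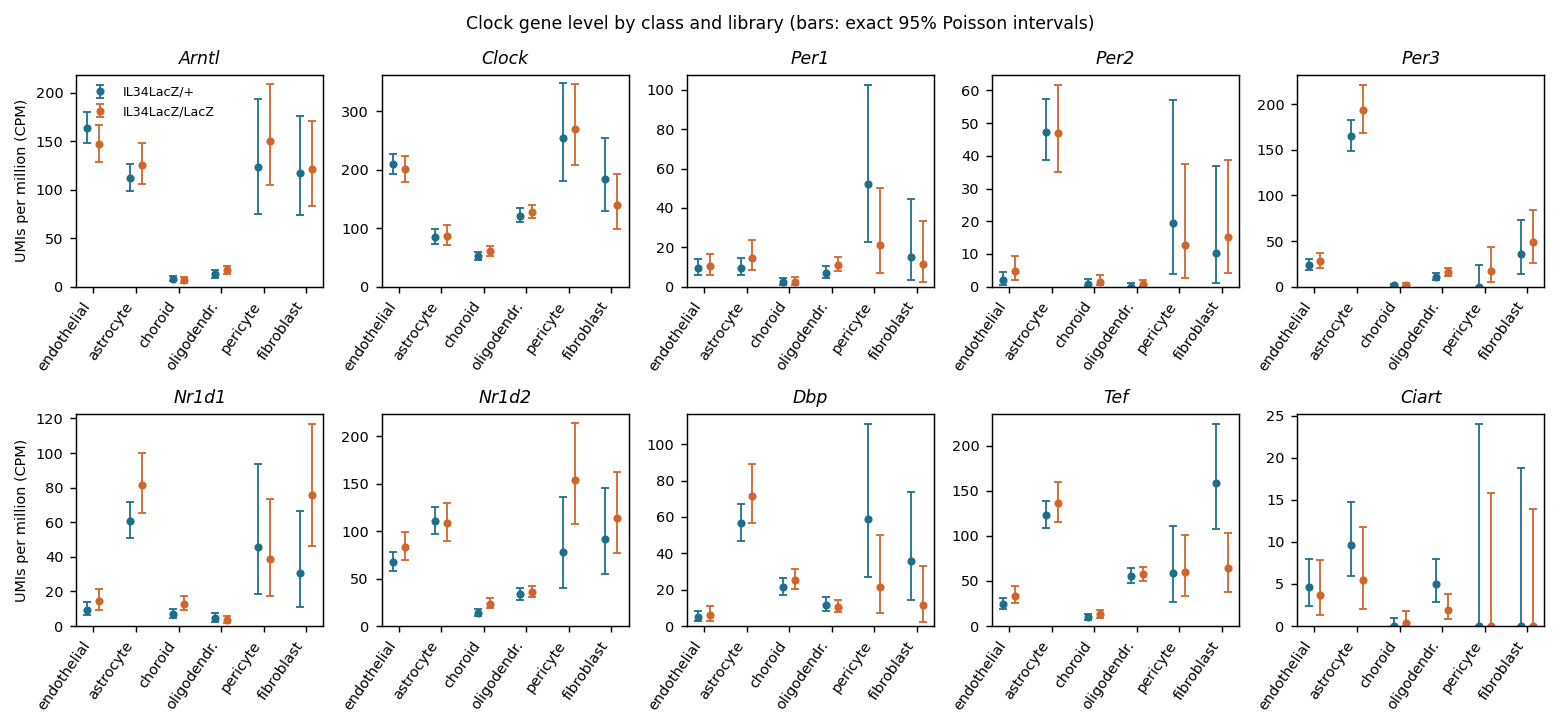
Level of each clock gene (CPM, vertical axis, each panel with its own scale from 0) in 6 classes, with points for the library labelled IL34LacZ/+ and the library labelled IL34LacZ/LacZ and exact 95% Poisson intervals as bars. Per2, Per3, Dbp and Nr1d1 stand highest in astrocyte-like cells among the 4 larger classes, while Clock and Arntl stand highest there in endothelial-like cells.

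Arntl and Clock, the activators of the loop, both stood highest in endothelial-like cells among the 4 larger classes. Arntl stood at 164 and 147 CPM in endothelial-like cells, at 112 and 126 in astrocyte-like cells, at 12.97 and 17.1 in oligodendrocyte-like cells and at 8.06 and 6.89 in choroid plexus epithelium-like cells. Endothelial-like and astrocyte-like levels differed by 1.46-fold and 1.17-fold and did not meet the call, while the other 2 classes were far below both in each library. Pericyte-like cells (124 and 150 CPM) and fibroblast-like cells (117 and 121 CPM) lay among the high classes. In endothelial-like cells 41.9% (212 cells, 95% Clopper-Pearson interval 37.6% to 46.3%) and 43.9% (130 cells, 38.2% to 49.8%) held an Arntl UMI. In oligodendrocyte-like cells the share was 12.6% and 22.5%, and in erythrocyte-like cells it was 25.0% (5.49% to 57.2%) and 15.6% (5.28% to 32.8%), with median depths of 13427 and 16402 against 23880 and 15280 UMIs. The Arntl CPM of oligodendrocyte-like and choroid plexus epithelium-like cells were below those of erythrocyte-like cells in each library, but 6 of the 8 and 5 of the 10 erythrocyte-like UMIs lay in 1 cell. Without that cell, a choice made after seeing the data, the erythrocyte-like level was 7.85 (0.951 to 28.4) and 10.1 (3.27 to 23.5) CPM, below oligodendrocyte-like cells and near choroid plexus epithelium-like cells. Low Arntl in these 2 classes could therefore not be told apart from free RNA by this guide.

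Clock stood at 209 and 200 CPM in endothelial-like, 121 and 128 in oligodendrocyte-like, 84.9 and 86.9 in astrocyte-like and 51.8 and 60.2 in choroid plexus epithelium-like cells. The order of these 4 classes was the same in both libraries, and no 95% interval of 1 class overlapped that of its neighbour in either library. Pericyte-like cells had 254 and 270 CPM on 39 and 63 UMIs, and their intervals overlapped those of endothelial-like cells. Choroid plexus epithelium-like cells, the lowest larger class, showed a Clock UMI in 40.3% and 43.4% of cells. In erythrocyte-like cells the share was 16.7% (2.09% to 48.4%) and 34.4% (18.6% to 53.2%). The choroid plexus epithelium-like shares thus did not stand above this guide beyond its intervals.

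The Per genes encode the repressors that, with the CRY proteins, close the loop. Per3, at chr4:151003652-151044665, had 165 and 194 CPM in astrocyte-like cells, 23.3 and 27.8 in endothelial-like, 10.5 and 15.9 in oligodendrocyte-like and 1.47 and 2.19 in choroid plexus epithelium-like cells. It was found in 68.4% (169 of 247 cells, 62.2% to 74.2%) and 78.6% (88 of 112 cells, 69.8% to 85.8%) of astrocyte-like cells, against 9.68% and 12.5% of endothelial-like cells and 1.61% and 2.74% of choroid plexus epithelium-like cells. Endothelial-like cells were shallower, with a median of 4376.5 and 4850 UMIs against 8505 and 8798. With each cell thinned to 1000 UMIs, Per3 was still seen in 17.4% and 17.9% of astrocyte-like and in 2.37% and 2.03% of endothelial-like cells. Per3 lies within the annotated span of Camta1, on the same strand, so tags inside the shared span could be assigned to either. Camta1 itself differed less between these classes, with 144 and 143 CPM in astrocyte-like and 104 and 110.1 CPM in endothelial-like cells, and it had 121 and 109.8 CPM in oligodendrocyte-like cells.

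Per2 was likewise highest in astrocyte-like cells, with fewer UMIs. It stood at 47.3 and 47.1 CPM in astrocyte-like cells on 103 and 52 UMIs, and at 1.91 and 4.84 CPM in endothelial-like cells on 5 and 8 UMIs. Oligodendrocyte-like cells of the library labelled IL34LacZ/+ held 0 Per2 UMIs among 3237296, where 3 UMIs would be 0.927 CPM, so Per2 was at least 51.0-fold higher in the astrocyte-like cells of that library. In the other library the oligodendrocyte-like cells held 3 UMIs, and the log2 ratio of oligodendrocyte-like over astrocyte-like cells was -6.01 (-8.33 to -4.38).

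Per1, which also responds quickly to many stimuli as an immediate early gene, was low in every larger class. It had 9.55 and 10.3 CPM in endothelial-like, 9.64 and 14.5 in astrocyte-like, 6.80 and 11.2 in oligodendrocyte-like and 2.20 and 2.51 in choroid plexus epithelium-like cells, on 8 to 46 UMIs per sum. Its astrocyte-like over endothelial-like log2 ratios were 0.01 (-0.90 to 0.91) and 0.49 (-0.59 to 1.57), so Per1 did not share the astrocyte-like excess of Per2 and Per3 within those intervals. Pericyte-like cells gave 52.1 and 21.4 CPM on 8 and 5 UMIs. Ciart, a repressor of the activator pair also known as CHRONO, was at most 9.64 CPM in the 4 larger classes and had 0 and 1 UMIs in choroid plexus epithelium-like cells. No pair of the 4 larger classes held 30 Ciart UMIs in both libraries, so none could be called. Against the floor of 3 UMIs, Ciart was at least 13.2-fold higher in astrocyte-like than in choroid plexus epithelium-like cells of the library labelled IL34LacZ/+, on 21 and 0 UMIs. In the other library it had 6 and 1 UMIs (log2 of choroid plexus epithelium-like over astrocyte-like -4.12, -9.64 to -1.07).

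Nr1d1 and Nr1d2 encode the REV-ERB repressors of Arntl. Nr1d1 stood at 60.6 and 81.5 CPM in astrocyte-like cells, 9.55 and 14.5 in endothelial-like, 4.63 and 3.42 in oligodendrocyte-like and 6.84 and 12.8 in choroid plexus epithelium-like cells. Nr1d2 was spread more evenly, with 111 and 109 CPM in astrocyte-like, 67.2 and 83.5 in endothelial-like, 33.4 and 35.9 in oligodendrocyte-like and 13.9 and 23.5 in choroid plexus epithelium-like cells. The Nr1d1 level of oligodendrocyte-like cells, on 15 and 14 UMIs, was near that of erythrocyte-like cells (3.41 and 5.73 CPM). The astrocyte-like over endothelial-like difference of Nr1d2 was 1.65-fold and 1.30-fold and was not called, while that of Nr1d1 was 6.35-fold and 5.61-fold. Nr1d1 shares 1075 bases with Thra on the opposite strand, and Thra moved differently, with 114 and 110.5 CPM in astrocyte-like and 432 and 414 CPM in oligodendrocyte-like cells. Whether the counting used strand is not given in the sources used here.

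Dbp and Tef encode the D-box activators that carry the rhythm to output genes. Dbp stood at 56.5 and 71.5 CPM in astrocyte-like cells. Of the 4 larger classes, choroid plexus epithelium-like cells came next with 21.3 and 25.4 CPM. Oligodendrocyte-like cells followed with 11.7 and 10.5 and endothelial-like cells with 4.97 and 6.05. Dbp in pericyte-like cells was 58.6 and 21.4 CPM on 9 and 5 UMIs, and in fibroblast-like cells 35.7 and 11.4 on 7 and 3. Neither of these smaller classes met the call against astrocyte-like cells for Dbp. Endothelial-like cells were thus its lowest larger class, on 13 and 10 UMIs, and 2.57% and 3.38% of them held a UMI against 16.7% and 12.5% of the deeper erythrocyte-like cells, whose Dbp level was 6.83 and 9.55 CPM. Endothelial-like Dbp could not be told apart from free RNA by this guide, so ratios to it set Dbp of the other classes against a level near background. Oligodendrocyte-like Dbp, seen in 13.4% and 15.4% of cells, also lay near the erythrocyte-like level. Tef stood at 123 and 137 CPM in astrocyte-like, 55.9 and 57.3 in oligodendrocyte-like, 24.4 and 33.9 in endothelial-like and 9.53 and 12.8 in choroid plexus epithelium-like cells. Fibroblast-like Tef was 158 and 64.4 CPM on 31 and 17 UMIs. Dbp and Tef therefore ranked choroid plexus epithelium-like cells differently, as second of the 4 classes for Dbp and as last for Tef.

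The sort aimed at astrocytes and endothelial cells, and these were compared first. Of 9 members with enough UMIs, 5 were higher in astrocyte-like cells, namely Per2, Per3, Dbp, Tef and Nr1d1, where 19.6% of all 9355 genes measured were. Clock was the 1 member higher in endothelial-like cells, where 20.1% of all genes were. The members' median log2 ratio was 2.17 and that of all genes -0.08. Dbp differed by 11.4-fold and 11.8-fold (log2 3.51, 2.68 to 4.46, and 3.56, 2.61 to 4.68). Per3 differed by 7.09-fold and 6.96-fold (log2 2.83, 2.43 to 3.24, and 2.80, 2.33 to 3.29). Per2 differed by log2 4.63 (3.36 to 6.28) and 3.28 (2.20 to 4.57) on few endothelial-like UMIs, and Tef by 2.33 (1.93 to 2.75) and 2.01 (1.56 to 2.48). Clock was lower in astrocyte-like cells by log2 -1.30 (-1.55 to -1.06) and -1.20 (-1.55 to -0.87). The members called on the astrocyte side encode repressors and output activators, and Clock, an activator of the loop, was called on the other. Arntl, the other activator, and the repressors Per1 and Nr1d2 were not called, so the calls do not divide the members by role.

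**Figure D2:**
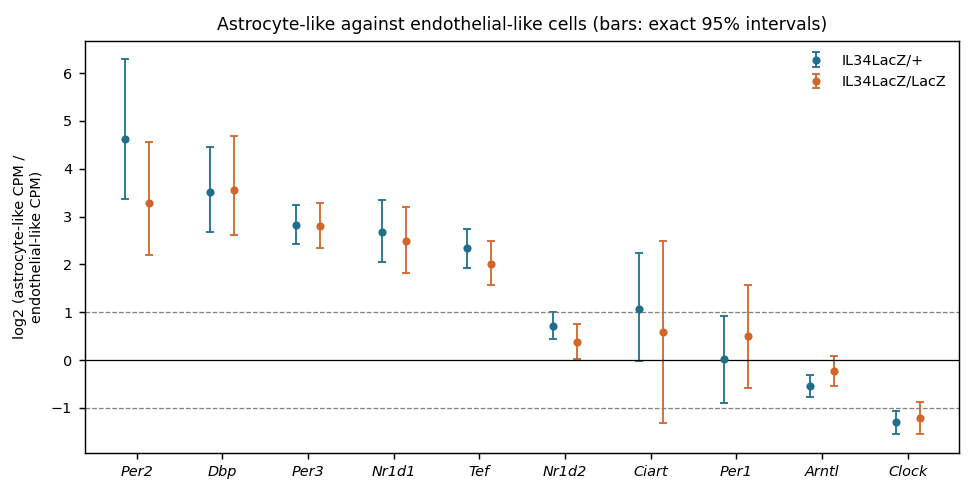
Log2 ratio of astrocyte-like over endothelial-like CPM (vertical axis) for each clock gene in each library, with exact 95% intervals as bars and dashed lines at 2-fold. Per2, Dbp, Per3, Nr1d1 and Tef lie above the upper line in both libraries, Clock lies below the lower line, and Nr1d2, Per1 and Arntl lie between the lines.

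Astrocyte-like cells also stood above oligodendrocyte-like cells for 7 of 9 members, against 21.3% of all genes. By the call no member was higher in oligodendrocyte-like cells, where 20.1% of all genes were. Nr1d1 differed by 13.1-fold and 23.8-fold there, Per3 by 15.7-fold and 12.2-fold and Arntl by 8.63-fold and 7.37-fold. Clock went the other way without reaching 2-fold, with log2 ratios of oligodendrocyte-like over astrocyte-like cells of 0.52 (0.26 to 0.78) and 0.56 (0.24 to 0.89). Endothelial-like cells stood above oligodendrocyte-like cells for 3 of 8 members, Arntl, Nr1d1 and Nr1d2, against 25.9% of all genes, and 0 stood higher in oligodendrocyte-like cells, where 25.6% of all genes did. For Nr1d1 and Nr1d2 the difference sat near the threshold (2.06-fold and 4.25-fold, 2.02-fold and 2.33-fold). The Nr1d1 call held under 4 of 12 alternatives and the Nr1d2 call under 7 of 12, while that of Arntl held under all 12.

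In choroid plexus epithelium-like cells Ttr, the transthyretin transcript, took 29.3% and 24.7% of all UMIs, which lowers the CPM of every other gene. The median of all genes was -0.99 on the log2 scale against endothelial-like cells and -0.92 against astrocyte-like cells. Before allowing for that shift, 7 of 8 members were higher in astrocyte-like than in choroid plexus epithelium-like cells (45.3% of all genes), and 5 of 7 higher in endothelial-like cells (47.7% of all genes). Centred on the median gene, 6 of 8 remained called against astrocyte-like cells, without Dbp, and Per3 and Arntl remained against endothelial-like cells. The share of all genes called after centring was not computed, so the centred counts have no background beside them. Per3 was the widest of these differences, at 113-fold and 88.3-fold against astrocyte-like cells, on 6 and 7 choroid plexus epithelium-like UMIs. Arntl differed by 20.3-fold and 21.3-fold against endothelial-like cells. Dbp was the 1 member higher in choroid plexus epithelium-like than in endothelial-like cells, by 4.28-fold and 4.20-fold, where 23.6% of all genes were, and that call held with and without Ttr in the total. Oligodendrocyte-like cells stood above choroid plexus epithelium-like cells for 4 of 8 members (44.1% of all genes), Per1, Per3, Tef and Clock. Centred on the median gene, Per3 and Tef kept that call and Per1 and Clock did not, while Dbp and Nr1d1 were higher in choroid plexus epithelium-like cells.

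Ratios of 2 members inside 1 class need no scaling by the class total, so they carry no shift from Ttr. A single ratio depends on how well each transcript is captured, and only its change between classes is read. Arntl over Dbp was 33.0 and 24.3 in endothelial-like cells, 1.98 and 1.76 in astrocyte-like, 1.11 and 1.63 in oligodendrocyte-like and 0.379 and 0.272 in choroid plexus epithelium-like cells. On the log2 scale this ran from 5.04 (4.25 to 5.97) and 4.60 (3.70 to 5.68) down to -1.40 (-2.02 to -0.81) and -1.88 (-2.63 to -1.19) in the 2 end classes, whose intervals did not overlap in either library. Endothelial-like Dbp (13 and 10 UMIs) and choroid plexus epithelium-like Arntl (33 and 22 UMIs) could not be told apart from free RNA, so both end ratios rest on a gene near background. Clock over Arntl was 1.28 and 1.36 in endothelial-like and 0.758 and 0.691 in astrocyte-like cells, and 7.49 to 9.36 in oligodendrocyte-like cells, where Arntl could not be told apart from free RNA. Nr1d2 over Nr1d1 was 7.04 and 5.75 in endothelial-like, 7.20 and 10.5 in oligodendrocyte-like, 1.83 and 1.33 in astrocyte-like and 2.04 and 1.83 in choroid plexus epithelium-like cells. Oligodendrocyte-like Nr1d1 (15 and 14 UMIs) and choroid plexus epithelium-like Nr1d2 lay near the erythrocyte-like levels, so these 2 classes' ratios rest on a gene near background. Tef over Dbp was alike in 2 classes, with 4.92 and 5.6 in endothelial-like and 4.76 and 5.47 in oligodendrocyte-like cells, and was 0.448 and 0.506 in choroid plexus epithelium-like cells. Choroid plexus epithelium-like Tef was near the erythrocyte-like level (20.5 and 7.64 CPM), and endothelial-like Dbp was near background as given above. Oligodendrocyte-like Dbp (11.7 and 10.5 CPM) lay near the erythrocyte-like level too (6.83 and 9.55 CPM). Both alike Tef over Dbp ratios, and Arntl over Dbp in oligodendrocyte-like cells, therefore rest on a gene near background.

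**Figure D3:**
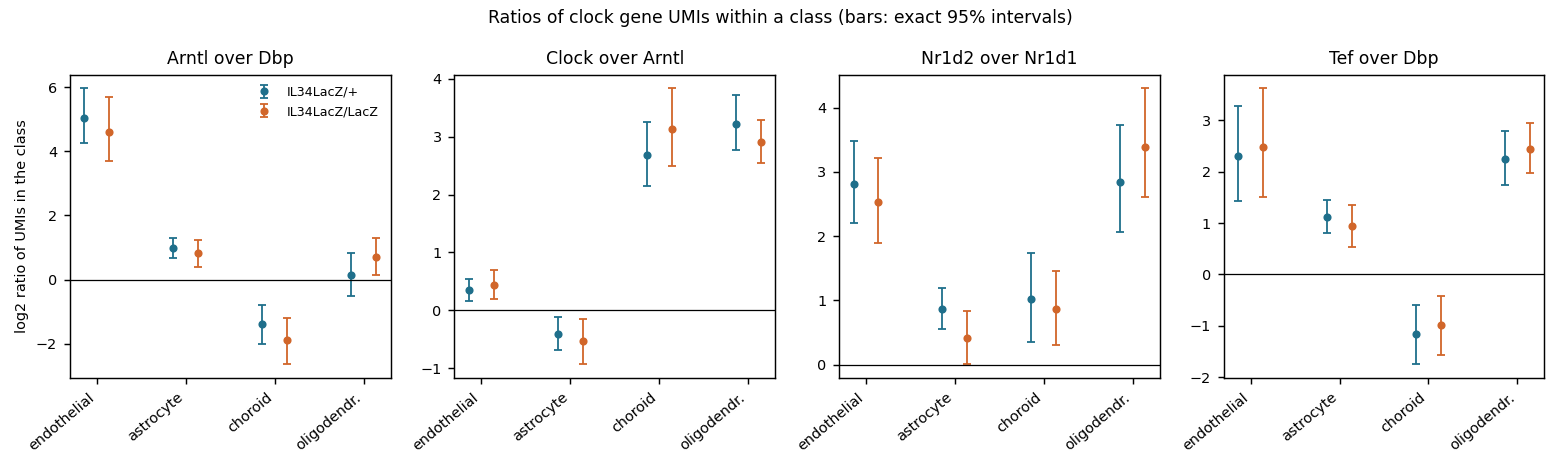
Log2 ratio of the UMIs of 2 clock genes inside a class (vertical axis, each panel with its own scale) for 4 classes and both libraries, with exact 95% intervals as bars. Arntl over Dbp is highest in endothelial-like and lowest in choroid plexus epithelium-like cells in both libraries, and Clock over Arntl is below 0 in astrocyte-like cells alone.

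Within astrocyte-like cells, clusters were made without the clock genes and 3 held enough cells of both libraries. They are called here by leading genes: Adcy8 and Gria1 (61 and 39 cells), Agt and Cldn10 (115 and 41 cells), and St6galnac5 and Lhx2 (54 and 24 cells). Per3 was alike across them, at 168 and 187, 160.0 and 211, and 163 and 170.0 CPM. Nr1d1 was 28.7 and 55.9 CPM in the Adcy8 cluster, 60.1 and 81.3 in the Agt cluster and 96.2 and 118 in the St6galnac5 cluster. In the library labelled IL34LacZ/+ the Nr1d1 intervals of the first (16.0 to 47.3) and the last (72.1 to 126) did not overlap, while in the other library they did (34.1 to 86.3 and 81.7 to 165). Dbp was also lowest in the Adcy8 cluster, at 30.6 and 50.3 CPM against 61.1 and 88.9 in the Agt and 70.8 and 72.9 in the St6galnac5 cluster. Its intervals in the Adcy8 (17.5 to 49.6) and St6galnac5 (50.3 to 96.8) clusters did not overlap in the library labelled IL34LacZ/+, and they did in the other. Per2 ran the other way, at 64.9 and 67.1 CPM in the Adcy8 cluster and 35.6 to 43.8 elsewhere, again with overlapping intervals. The summed level of 18 immediate early genes was 72.6 and 53.1 CPM in the Adcy8 cluster and 199.6 and 159.6 CPM in the St6galnac5 cluster, and its part in the Nr1d1 difference was not tested.

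**Figure D4:**
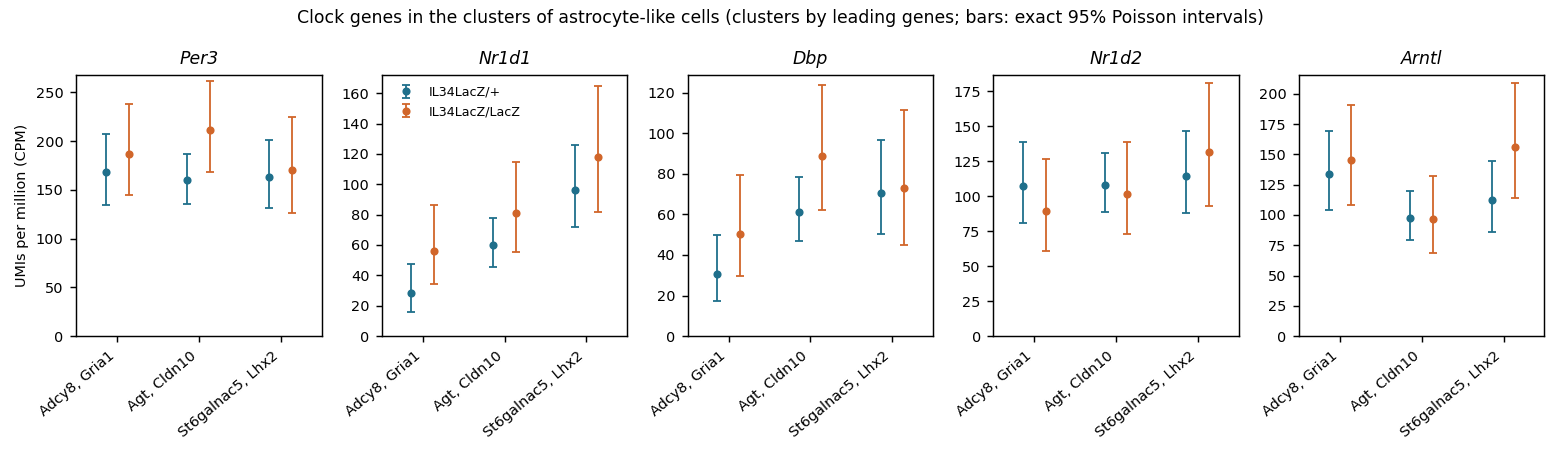
Level of 5 clock genes (CPM, vertical axis from 0, each panel with its own scale) in 3 clusters of astrocyte-like cells named by leading genes, for both libraries, with exact 95% Poisson intervals as bars. Nr1d1 is lowest in the Adcy8, Gria1 cluster and highest in the St6galnac5, Lhx2 cluster in both libraries, while Per3 stays between 160.0 and 211.

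In the 5 endothelial-like clusters with cells in both libraries, Clock ran from 167 to 243 CPM and Arntl from 77.6 to 221 CPM, and the lowest Arntl value rested on 19 UMIs. That value, in the cluster led by Ctla2a and Ly6c1, had an interval (46.7 to 121) below that of the cluster led by Slc1a1 and Hmcn1 (127 to 186) in the library labelled IL34LacZ/LacZ, while in the other library the intervals overlapped (114 to 177 and 138 to 186). Among oligodendrocyte-like cells, Clock was 60.9 and 82.6 CPM in the cluster led by Klk6 and 126 to 162 CPM in the other 3, and the intervals of that cluster lay below the others in both libraries. Per3 in the Klk6 cluster was 13.9 and 37.1 CPM, and it stood above the other 3 clusters in the library labelled IL34LacZ/LacZ alone. In the cluster led by Fos and Hspa1b, where immediate early genes summed to 6721 and 7561 CPM, Per1 had 10.2 and 19.7 CPM on 6 and 21 UMIs, with lower bounds of 3.73 and 12.2.

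Other genes of the pathway came from 3 lists. Of 11 clock transcription factor partners, 8 were measured between endothelial-like and astrocyte-like cells, and 6 were higher in astrocyte-like cells (19.6% of all genes were): Cry2, Npas2, Rora, Rorb, Bhlhe41 and Hlf. None was higher in endothelial-like cells, where 20.1% of all genes were. Cry2, a partner of the PER proteins, had 113 and 126 CPM in astrocyte-like and 12.2 and 7.26 in endothelial-like cells, whereas Cry1 had 20.2 and 29.9 against 24.4 and 26.6 and was not called. Npas2, a relative of Clock that can take its place beside the Arntl protein, had 194 and 206 CPM in astrocyte-like, 30.9 and 29.0 in endothelial-like and 0.309 and 0.488 in oligodendrocyte-like cells. Clock and Npas2 thus had opposite directions between astrocyte-like and endothelial-like cells. Rora, an activator of Arntl, had 3449 and 3403 CPM against 443 and 441, and Rorb had 1474 and 1246 CPM in astrocyte-like cells against 8 and 0 UMIs in endothelial-like cells. Hlf, the third gene of the Dbp and Tef family, had 141 and 141 CPM in astrocyte-like and 36.3 and 31.5 in endothelial-like cells.

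Of 12 clock kinases and turnover genes, 11 were measured between these classes. Prkaa2 was the 1 higher in astrocyte-like cells, and Timeless and Prkaa1 were the 2 higher in endothelial-like cells, shares no larger than the 19.6% and 20.1% of all genes. Csnk1d, a kinase of the PER proteins, had 58.3 and 45.3 CPM in astrocyte-like and 77.1 and 106 CPM in endothelial-like cells and was not called. Of 8 common clock output genes 7 were measured, and 5 were higher in astrocyte-like cells, against 19.6% of all genes: Usp2, Tsc22d3, Pdk4, Bhlhe41 and Hlf. Bhlhe41 and Hlf are also in the partner list and were counted there. Usp2, a ubiquitin protease and a frequent output of the clock, had 67.0 and 91.4 CPM in astrocyte-like, 47.9 and 57.3 in choroid plexus epithelium-like and 1.53 and 2.42 in endothelial-like cells, an order like that of Dbp. Nampt, the rate-limiting enzyme of NAD salvage, was higher in endothelial-like cells, with 355 and 304 CPM against 13.3 and 17.2.

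Between the libraries few members were called. A gene was called there when its CPM differed by at least 1.5-fold with a 95% interval that left out 1 and at least 30 UMIs in the class. In endothelial-like cells 0 of 7 measured members were called (3.2% of all genes were higher and 5.87% lower in the library labelled IL34LacZ/LacZ), and in astrocyte-like cells 0 of 9 (2.65% higher, 3.68% lower). In oligodendrocyte-like cells it was 0 of 7 (1.92% higher, 2.5% lower). Log2 ratios of IL34LacZ/LacZ over IL34LacZ/+ lay above 0 for 5 of 7 measured members in endothelial-like and 7 of 9 in astrocyte-like cells. They did so for 5 of 6 in choroid plexus epithelium-like and 6 of 7 in oligodendrocyte-like cells. In that order the members' medians were 0.26, 0.17, 0.34 and 0.10, against -0.03, -0.04, 0.07 and -0.05 for all genes. The share of all genes above 0 was not computed. The intervals set what could have been missed: for Clock in endothelial-like cells the log2 ratio of IL34LacZ/LacZ over IL34LacZ/+ was -0.06 (-0.26 to 0.14), for Arntl -0.16 (-0.39 to 0.07), and for Per3 in astrocyte-like cells 0.23 (-0.02 to 0.48). Nr1d1 in astrocyte-like cells was 1.34-fold higher (log2 0.43, 0.02 to 0.82), short of the fold asked. Per1 in oligodendrocyte-like cells had 22 and 46 UMIs (log2 0.72, -0.04 to 1.53) in a class in which 10 of 14 measured immediate early genes were higher in the library labelled IL34LacZ/LacZ.

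In choroid plexus epithelium-like cells Nr1d1 and Nr1d2 were the 2 members called of 6 measured, both higher in the library labelled IL34LacZ/LacZ, where 7.15% of all genes were higher and 1.46% lower. Nr1d1 had 28 and 41 UMIs (log2 0.91, 0.18 to 1.66), and Nr1d2 had 57 and 75 UMIs (log2 0.75, 0.24 to 1.28). Nr1d1 was seen in 8.39% and 16.9% of these cells and Nr1d2 in 17.1% and 24.2%, where erythrocyte-like cells showed 8.33% and 9.38% for Nr1d1 and 16.7% and 28.1% for Nr1d2. The shares of neither gene thus stand above that background beyond their intervals. The erythrocyte-like sums held 1 and 3 Nr1d1 UMIs and 3 and 13 Nr1d2 UMIs. Nr1d1 lost its call when the filters on genes and mitochondrial share were dropped and the minimum lowered to 500 UMIs (log2 0.61, -0.04 to 1.28). Under that setting this class held 375 and 417 cells, against 310 and 219 kept here, so the filters removed unequal parts of the 2 libraries. The kept cells had median mitochondrial shares of 9.44% and 11.1%. In the same cells Arntl, which both repress, had 33 and 22 UMIs (log2 -0.23, -1.07 to 0.60), and Rora, which acts on the same elements, had 34.4 and 81.5 CPM (log2 1.24, 0.94 to 1.55). Of 8 measured immediate early genes in this class 5 were higher in the library labelled IL34LacZ/LacZ, Fos with 15 and 158 UMIs, and the part of that difference in the Nr1d1 and Nr1d2 values was not tested.

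**Figure D5:**
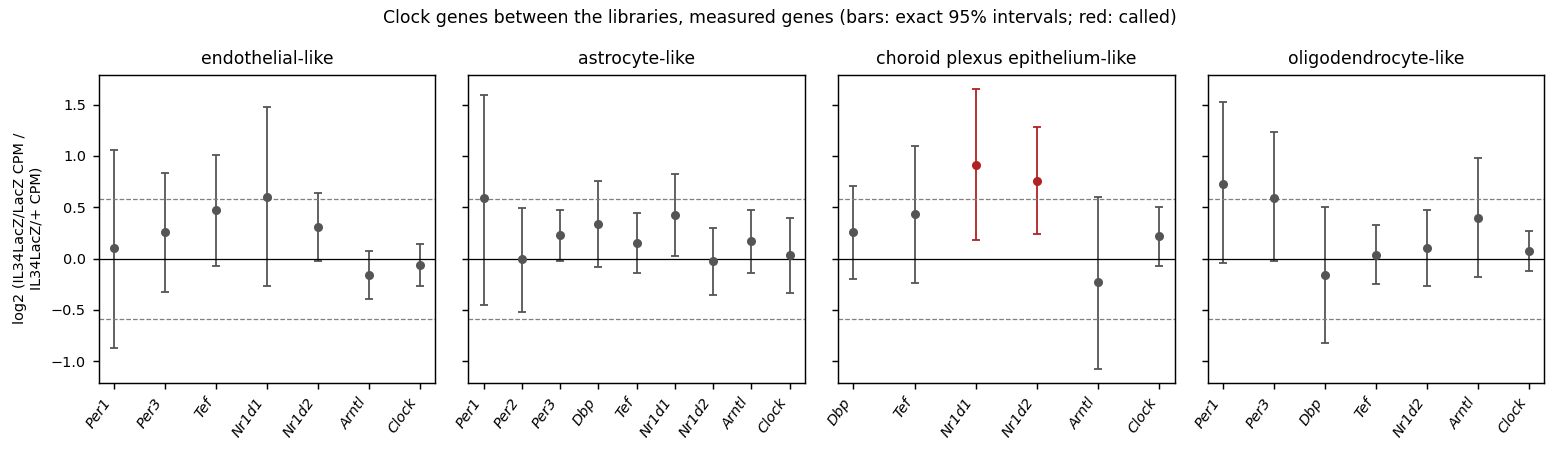
Log2 of the CPM ratio IL34LacZ/LacZ to IL34LacZ/+ (vertical axis) for the clock genes with at least 30 UMIs in each of 4 classes, with exact 95% intervals as bars, dashed lines at 1.5-fold and called genes in red. Nr1d1 (0.91) and Nr1d2 (0.75) in choroid plexus epithelium-like cells are the red points.

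The smaller vessel-associated classes had few UMIs. Nr1d1 was the 1 of 6 measured members higher in pericyte-like (45.6 and 38.6 CPM, on 7 and 9 UMIs) than in endothelial-like cells, where 7.25% of all genes were. It was likewise the 1 of 6 higher in fibroblast-like cells (30.6 and 75.7 CPM, on 6 and 20 UMIs), where 14.8% of all genes were. Between the libraries, Nr1d2 was the 1 of 3 measured members called in pericyte-like cells, with 12 and 36 UMIs (log2 0.98, 0.01 to 2.06). Of all 2547 genes measured there, 166 were called higher in the library labelled IL34LacZ/LacZ and 187 lower. Tef was the 1 of 4 called in fibroblast-like cells, with 31 and 17 UMIs (log2 -1.30, -2.24 to -0.40). Of all 3539 genes measured there, 250 were called lower and 295 higher. The Nr1d2 and Tef calls both rest on fewer than 50 cells per library, and 53 and 49 cells lay within 1 marker of the fibroblast-like cut on the outside.

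Patterns across classes were compared over 16 sums (8 classes in 2 libraries), on log2(CPM + 5), as a description only, since sums of 1 class are not independent. Of the members with at least 30 UMIs in 4 or more classes, Nr1d2 and Arntl resembled each other most (Pearson r = 0.86). Among all 12203 genes ranked, the pattern of Clock was closest to that of Ddx3x (r = 0.98), Thap3 (0.96) and Rsu1 (0.96). Arntl was closest to Spred2, Hivep2 and Alpk1 (0.96, 0.96 and 0.95), Nr1d2 to Stat5b, Stt3b and Vmn2r29 (0.96, 0.95 and 0.95), and Tef to Cc2d2a, Izumo4 and Snx21 (0.92, 0.91 and 0.91). Vmn2r29 belongs to a family of near-identical receptor genes, so its own counts are uncertain. Among the members, Dbp and Clock were least alike (r = 0.02).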

How the data were processed

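The deposited values are whole UMI counts, 1 per gene in each barcode, which the authors made with Cell Ranger 7.1.0 on GRCm38.p6 (mm10), per the file headers and the submitters' processing notes. Whether intronic reads were counted and free RNA removed is not given in the sources used here. Barcodes with at least 1000 UMIs, 500 genes and at most 15% mitochondrial UMIs were kept. Scrublet (scanpy 1.11.5) marked 22 (1.32%) and 8 (0.681%) doublets, which were removed, and missed doublets can carry transcripts between classes. A cell took a class when it detected at least 50% of a list's markers and the next list reached at most 50% of that share. Of the 16 lists, the erythrocyte list took no part in this ranking. Cells in which haemoglobin made at least 50% of UMIs were put into the erythrocyte-like class. Kept cells outside every class numbered 158 and 135 mixed and 74 and 64 ungated. Leiden clusters (2000 variable genes, 30 components, 15 neighbours, resolution 1, clock genes left out) held 97.0% to 100% of gated cells under the same name. Counts were summed per class and library. CPM carry exact Poisson, shares Clopper-Pearson and ratios conditional binomial 95% intervals. PCR, capture and differences between mice are not in these intervals. A fold against 0 uses a floor of 3 UMIs per sum and is not the bound of an interval. The text names the 10 members, fixed gene and marker lists and, for members with at least 30 UMIs in each of 4 classes, the 3 genes of most similar pattern at 20 CPM or more in 1 sum. The members and lists were chosen with earlier results of these data known. Gene positions are from GENCODE M21. The calling was checked on simulated Poisson counts. These hold counting error only, so that check says nothing about variation between cells, captures or mice. Alternatives are in the closing section.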

Additional observations from a re-analysis of the deposited data

Results flagged for a closer look

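Clock gene UMIs also appeared in barcodes that no comparison used, above the level that 3 UMIs would give. The 10 members summed to 73.3 CPM in the library labelled IL34LacZ/+ and 55.4 CPM in the library labelled IL34LacZ/LacZ in barcodes left out by the cell filters. In kept cells of no class, which were mixed or ungated, they summed to 376 and 395 CPM.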

How the results depend on the processing

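All counts of called members were recomputed under 12 alternatives, the last of which (a class total without Ttr) was chosen after seeing the data. The matching shares of all genes were not recomputed. Thinning each cell to 1000 UMIs left few genes with 30 UMIs and so few calls: 0 of 3 measured for endothelial-like against astrocyte-like cells, 0 of 2 for astrocyte-like against oligodendrocyte-like, 0 of 0 for astrocyte-like against choroid plexus epithelium-like, 3 for endothelial-like against choroid plexus epithelium-like, 1 for endothelial-like against oligodendrocyte-like, 1 for choroid plexus epithelium-like against oligodendrocyte-like, and 0 between libraries in choroid plexus epithelium-like cells. There Nr1d1 reversed between oligodendrocyte-like and endothelial-like cells of the library labelled IL34LacZ/+ (log2 0.082, -3.38 to 2.88). Centring on the median gene left 3 calls for endothelial-like against choroid plexus epithelium-like cells and gave 2 between libraries in oligodendrocyte-like cells (Per1 and Per3, both higher). Asking for 100 UMIs left 3 calls for endothelial-like against choroid plexus epithelium-like cells, 2 for choroid plexus epithelium-like against oligodendrocyte-like, and 1 between libraries in choroid plexus epithelium-like cells (Nr1d2). With no minimum, 1 member was called between libraries in oligodendrocyte-like cells (Ciart, lower). Leaving out for each gene the 2% of cells richest in it, 1 was called between libraries in endothelial-like cells (Tef, higher), 2 in oligodendrocyte-like cells (Per1 and Per3), and 2 for choroid plexus epithelium-like against oligodendrocyte-like cells. With at least 500 UMIs per cell and no filter on genes or mitochondrial share, 1 was called in oligodendrocyte-like cells (Per1). In choroid plexus epithelium-like cells Tef then took the place of Nr1d1. Without mitochondrial, ribosomal protein and haemoglobin genes in the total, 1 was called for endothelial-like against oligodendrocyte-like cells. The cause was not tested where the construction does not show it. The 6 calls between endothelial-like and astrocyte-like cells each held under at least 10 of the 12 alternatives. Between endothelial-like and oligodendrocyte-like cells, Nr1d1 held under 4 and Nr1d2 under 7. Of 1331 single class ratios 1231 stayed within their interval, and of 447 library ratios 437 did. No paired analysis was possible because each genotype has 1 library. Depth limits Per1, Per2 outside astrocyte-like cells and Ciart, and the intervals cover counting error only, so differences between mice, hours or libraries cannot be told apart from genotype.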
